A study of Mus musculus with 8 samples.

Results

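The 10 genes described here encode enzymes of glycolysis and both main subunits of lactate dehydrogenase: Gpi1, Aldoa, Tpi1, Gapdh, Pgk1, Eno1, Eno2, Pkm, Ldha and Ldhb. They were chosen by gene symbol as members of the pathway, with earlier results of these data known but with no threshold on a measured value, and all 10 were found by Ensembl identifier among the 22430 genes of the long-read count table. Gene expression was measured by nanopore direct RNA sequencing, in which native polyadenylated RNA molecules are read without conversion to short fragments, in 8 libraries from whole brain hemispheres of male C57Bl/6JRj mice. The young adult group held 4 mice at 6 months (6m) and the aged group 4 mice at 24 months (24m), with 1 library per mouse. The labels and methods name no transgene or treatment for these animals, and age was the only difference stated between the groups. The labels name a directional short-read library kit beside the nanopore instrument, whereas the methods describe direct RNA libraries for these samples, and the methods were followed here.

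Glycolysis splits glucose into pyruvate in the cytosol and yields ATP and NADH on the way. Lactate dehydrogenase interconverts pyruvate and lactate, and in the brain, which depends on glucose, glia are known to release lactate that neurons can take up. Several steps are carried out by isoenzymes with different tissue preferences: Eno2 encodes the neuronal gamma enolase and Eno1 the widely expressed alpha enolase, Aldoc the brain-type and Aldoa the muscle-type aldolase, and Ldha and Ldhb the M and H subunits of lactate dehydrogenase.

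The libraries held between 573152 and 1255424 gene counts, and aged replicate 4 was the deepest. Levels are given below as CPM, gene counts scaled to a common library size after correction of the library sizes by the trimmed mean of M values (TMM). Markers of neurons, astrocytes, oligodendrocytes and microglia were detected in all libraries. Of 4 listed liver markers, Alb had no count in any library. The liver list summed to 2790 to 4165 CPM at 6m and 2160 to 4315 CPM at 24m, and its 1 tested gene was not called. This list shares Ttr with the choroid plexus list, so its sum does not stand for liver alone. Several cell type lists moved with age. The summed level of 8 neuronal markers (Eno2 among them) was 2777 to 2958 CPM at 6m and 3402 to 3684 CPM at 24m, with 3 of 8 called higher at 24m. That of 8 oligodendrocyte markers was 2011 to 2579 CPM at 6m and 2785 to 3648 CPM at 24m, with 2 called higher. The 5 red blood cell markers were all called lower at 24m, from a sum of 6090 to 10032 CPM at 6m to one of 3350 to 6283 CPM at 24m. The microglial list summed to 598 to 655 CPM at 6m and 726 to 925 CPM at 24m. Of its 6 tested markers 1 was called higher, and all 6 had a positive log2 fold change. Of 7 tested astrocyte markers 3 were called higher and 1 lower. None of the 4 endothelial, 2 choroid plexus and 1 skeletal muscle markers tested was called. For comparison, 14.5% of all 9375 tested genes were called by the thresholds given below (10.3% higher and 4.17% lower). Transcripts whose canonical form is longer than 3 kb took 25.2% ± 0.212 (SD, n = 4) of the counts at 6m and 27.8% ± 1.07 (SD, n = 4) at 24m, and mRNAs encoded by the mitochondrial genome took a mean of 9.96% at 6m and 7.99% at 24m. The part of cell composition, transcript length and mitochondrial RNA in the values below was not tested. In bulk tissue, fewer cells of a type and less RNA per cell cannot be told apart.

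Of the 10 genes, 1 was called lower in the aged brain, Gapdh, and none was called higher. A gene was called when the Benjamini-Hochberg adjusted p of edgeR's quasi-likelihood test (padj) was at most 0.05 and the absolute log2 fold change of 24m over 6m (log2FC) was at least 0.58. All 10 passed the filter on low counts, a mean count over 5, which 9375 genes passed. Of those 9375 genes, 14.5% were called (10.3% higher and 4.17% lower). By padj alone, 4 of the 10 genes passed, Gapdh, Gpi1 and Eno1 lower and Eno2 higher, against a background of 21.7% of all tested genes (12.3% higher and 9.42% lower). Among the 1458 tested genes with a mean count of at least 100, as all 10 had, 40.4% passed by padj alone (15.4% higher and 25% lower) and 9.6% were called. The libraries of the ages did not overlap in level for 5 of the 10 genes (Gapdh, Gpi1, Pgk1, Ldha and Ldhb, all lower at 24m), against 21.1% of all tested genes and 36.5% of those with a mean count of at least 100. The median log2FC was -0.17 over the 10 genes, -0.003 over all tested genes and -0.13 over those with a mean count of at least 100. The median of the 10 genes thus lay nearer to that of other abundant transcripts than to that of all genes.

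**Figure D1:**
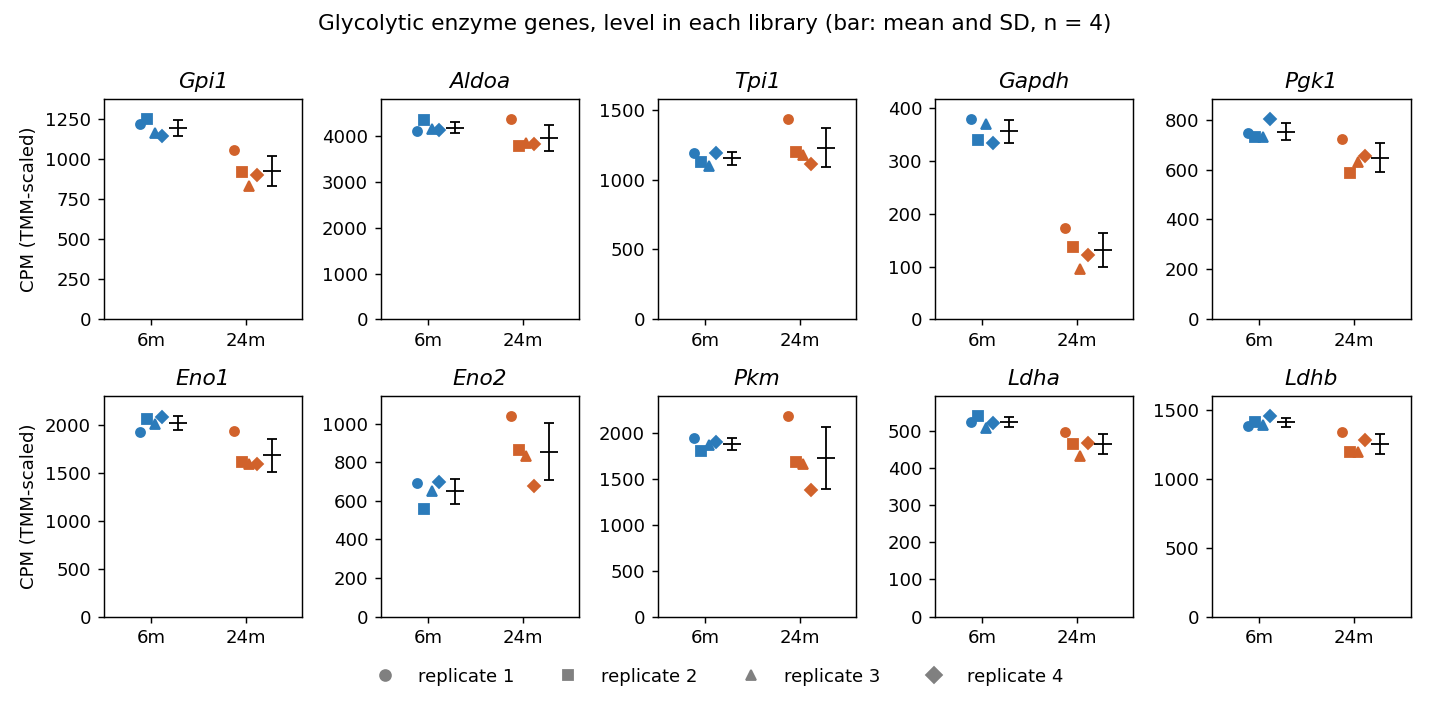
Level of each of the 10 genes in each library in TMM-scaled CPM (vertical axes start at 0 and differ between panels), with 6m in blue and 24m in orange, symbols for replicates, and the mean and SD of 4 libraries in black. Gapdh was between 334 and 379 CPM at 6m and between 96.0 and 172 CPM at 24m, whereas the other 9 genes differed less between ages and aged replicate 1 lay above the other aged libraries in 10 of the 10 panels.

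As a whole, the 10 genes took a similar mean share of the counts at both ages, but this rested on aged replicate 1. The share was 1.34 to 1.39% at 6m, with a mean of 1.36% ± 0.0204 (SD, n = 4), and 1.25 to 1.47% at 24m, with a mean of 1.33% ± 0.0944 (SD, n = 4). Aged replicates 2 to 4, at 1.32, 1.29 and 1.25%, all lay below the lowest young adult library. The difference of the means (24m minus 6m) was -0.030 percentage points, -0.074 without aged replicate 1 and -0.086 with the near-identical rows added. Aged replicate 1 had the highest share of all libraries, 1.47% with an exact (Clopper-Pearson) 95% interval of 1.44 to 1.49%, and aged replicate 4 the lowest, 1.25% with an interval of 1.23 to 1.27%. These intervals cover counting error only and do not overlap, so these 2 aged libraries differed by more than counting error. With 1 library per mouse, a difference between mice and one between library preparations cannot be told apart. The makeup of the share moved more than its size. Gapdh made up 2.52% ± 0.174 (SD, n = 4) of the counts on the 10 genes at 6m and 1.01% ± 0.168 (SD, n = 4) at 24m, and Eno2 4.60% ± 0.454 (SD, n = 4) and 6.61% ± 0.647 (SD, n = 4).

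Levels of different genes were compared per kilobase of the canonical transcript, although a direct RNA read stands for a whole molecule. The order below therefore depends on the division by length. By CPM without it, Eno1 (2023) and Pkm (1877) stood above Ldhb (1410) at 6m, and Gpi1 (1190) stood above Pgk1 (752). Aldoa stood highest at both ages, with 2769 ± 76.1 CPM per kb (SD, n = 4) at 6m and 2618 ± 184 CPM per kb (SD, n = 4) at 24m. At 6m Ldhb followed with 922 ± 21.0 CPM per kb (SD, n = 4) and Eno1 with 882 ± 30.6 CPM per kb (SD, n = 4), neighbours that lay within their spread. Pkm, at 767 ± 25.1 CPM per kb (SD, n = 4), and Tpi1, at 717 ± 28.2 CPM per kb (SD, n = 4), came next and also lay within their spread. Pgk1 and Gpi1 did not differ beyond theirs, at 412 ± 19.0 and 410 ± 17.5 CPM per kb (SD, n = 4). At the low end stood Ldha with 330 ± 8.53 CPM per kb, Gapdh with 250 ± 15.5 CPM per kb and Eno2 with 233 ± 23.0 CPM per kb (SD, n = 4 each), of which Gapdh and Eno2 lay within their spread. At 24m Gapdh was last, at 92.5 ± 22.5 CPM per kb (SD, n = 4), below Ldha at 294 ± 17.0 and Eno2 at 306 ± 52.9 CPM per kb (SD, n = 4 each). The places of Gapdh and Eno1 in this order hold only for their own rows, since both genes have near-identical copies among the rows, described below. With the rows of its copies added, Gapdh was at 1197 ± 44.5 CPM per kb (SD, n = 4) at 6m, above Ldhb, and at 727 ± 110 CPM per kb (SD, n = 4) at 24m, within the spread of Tpi1 and Pkm. With the row of Eno1b added, Eno1 was at 1770 ± 61.5 CPM per kb (SD, n = 4) at 6m and 1481 ± 155 CPM per kb (SD, n = 4) at 24m, next to Aldoa at both ages. Whether a read could be counted on more than 1 of these rows was not given in the sources used here.

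Gpi1 (ENSMUSG00000036427, GRCm39 chr7:33900755-33929780, minus strand, 18 exons in its canonical transcript) encodes glucose phosphate isomerase, which turns glucose phosphate into fructose phosphate. Its level was 1217, 1248, 1157 and 1139 CPM in young adult replicates 1 to 4 and 1053, 918, 832 and 897 CPM in aged replicates 1 to 4. Every aged library lay below every young adult library. The mean was 1190 ± 50.8 CPM (SD, n = 4) at 6m and 925 ± 93.1 CPM (SD, n = 4) at 24m, with a log2FC of -0.36 (SE 0.0882, 95% interval -0.55 to -0.18, edgeR padj 0.00436). The difference thus passed the adjusted p but not the fold minimum. No other annotated transcript covered at least 50% of the canonical Gpi1 transcript at an identity of at least 95%.

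Aldoa (ENSMUSG00000030695, chr7:126393822-126399923, minus strand, 9 exons) encodes the aldolase that cleaves fructose bisphosphate into triose phosphates. It was the most abundant of the 10 genes, with 4100 to 4352 CPM at 6m and 3780 to 4370 CPM at 24m. The groups overlapped because aged replicate 1 stood above all young adult libraries. The log2FC was -0.08 (SE 0.0858, 95% interval -0.26 to 0.09, edgeR padj 0.541), and its sign turned under quantile normalization and under scaling by library size alone. Aldoa shares 2320 exon bases on its own strand with Gm57854, which had 9 counts in all 8 libraries together, and 84 exon bases on the opposite strand with Tlcd3b (66.9 to 104 CPM).

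Tpi1 (ENSMUSG00000023456, chr6:124787549-124791273, minus strand, 7 exons) encodes triosephosphate isomerase, which interconverts both triose phosphates. Levels were 1100 to 1190 CPM at 6m and 1111 to 1433 CPM at 24m, so the groups overlapped. The log2FC was 0.09 (SE 0.0897, 95% interval -0.09 to 0.28, edgeR padj 0.511). In this scaling, Tpi1 and Eno2 were the members of the 10 with a positive log2FC. Its exons share 38 bases with Spsb2 on the opposite strand, a gene at 3.07 to 15.4 CPM.

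Gapdh (ENSMUSG00000057666, chr6:125135289-125143518, minus strand, 7 exons) encodes glyceraldehyde phosphate dehydrogenase, which produces the NADH of the pathway and is widely used as a reference gene. The mouse genome holds many processed copies of it. By BLAST, 77 annotated genes at other loci had a transcript that covered at least 50% of the canonical Gapdh transcript at an identity of at least 95%, and 3 of them were rows of the count table. These were Vmn2r60, with no count, and the retrotransposed genes Gapdhrt (ENSMUSG00000097148, chr14:11113008-11189060, plus strand) and Gapdhrt2 (ENSMUSG00000110469, chr8:76131968-76133217, minus strand). Each of the latter differs from Gapdh at 7 of 999 coding bases, an identity of 99.3%. The stretch of 120 bases with the largest number of differing positions is shown, coding bases 31 to 150 counted from the first base of the start codon. It holds 3 of the 7 differences of Gapdhrt and 4 of the 7 of Gapdhrt2. Chosen as the most distinct stretch of this length, it is not typical of the coding sequence, where other stretches held no more differing positions. Capitals mark the 5 positions at which any of the 3 sequences differs, read from the GENCODE vM39 transcripts (GRCm39), 5′ to 3′.
Gapdh: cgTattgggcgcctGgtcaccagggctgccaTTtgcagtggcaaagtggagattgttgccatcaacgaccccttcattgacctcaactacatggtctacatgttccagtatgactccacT
Gapdhrt: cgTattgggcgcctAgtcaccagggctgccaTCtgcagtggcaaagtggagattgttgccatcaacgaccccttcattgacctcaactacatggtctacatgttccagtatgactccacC
Gapdhrt2: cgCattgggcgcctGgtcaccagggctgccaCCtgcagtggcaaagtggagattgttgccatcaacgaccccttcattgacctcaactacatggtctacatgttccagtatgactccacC

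The Gapdh row had 379, 340, 370 and 334 CPM in young adult replicates 1 to 4 and 172, 136, 96.0 and 121 CPM in aged replicates 1 to 4. The groups were far apart: the lowest young adult library lay well above the highest aged one. The mean was 356 ± 22.1 CPM (SD, n = 4) at 6m and 131 ± 31.9 CPM (SD, n = 4) at 24m, from 188 to 308 counts and 75 to 158 counts per library. The log2FC was -1.45 (SE 0.127, 95% interval -1.71 to -1.19, edgeR padj 5.03e-08), so that the row fell by 63.4%.

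Most of the counts on these near-identical rows were not on Gapdh. Gapdhrt2 held 766 counts per library on average, against 192 on Gapdh and 143 on Gapdhrt. Gapdhrt fell from 241 ± 21.0 CPM (SD, n = 4) at 6m to 121 ± 23.8 CPM (SD, n = 4) at 24m, with no overlap between the groups (95% interval of the log2FC -1.26 to -0.73, SE 0.131, edgeR padj 6.04e-06). Gapdhrt2 was at 1104 ± 38.5 CPM (SD, n = 4) at 6m and 780 ± 104 CPM (SD, n = 4) at 24m, also without overlap (log2FC -0.50, SE 0.0931, edgeR padj 0.000427), a difference below the fold minimum. All 3 rows were therefore lower at 24m, but by unequal amounts. Gapdh made up 20.9% ± 0.999 (SD, n = 4) of the counts on the 3 rows at 6m and 12.6% ± 1.22 (SD, n = 4) at 24m, whereas Gapdhrt2 made up 64.9% ± 0.989 (SD, n = 4) and 75.7% ± 1.57 (SD, n = 4). The ratio of Gapdh to Gapdhrt2 counts within a library was 0.308 to 0.349 at 6m and 0.144 to 0.189 at 24m (log2 difference -0.96, two-sided exact permutation test p = 0.0286, the smallest p that 4 against 4 libraries allow). This ratio was not among the planned ones and its p was not adjusted. With the ages fully apart, the p could only take this smallest value, so it adds nothing to the ranges.

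With the counts of Gapdhrt and Gapdhrt2 added to Gapdh, the sum was 1617 to 1771 CPM at 6m and 866 to 1224 CPM at 24m. The summed row was still called lower, with a log2FC of -0.72 (edgeR padj 7.27e-06), so the size of the change depended on how the copies were counted. Reads of Gapdh, Gapdhrt and Gapdhrt2 could not be told apart with certainty in the deposited table, since the handling of reads with several alignments was not given in the sources used here. A further overlap lies at the Gapdh locus itself, where exons of Iffo1 on the opposite strand share 2982 bases with exons of Gapdh and cover 81.5% of its canonical transcript. Iffo1 had 18 to 41 counts per library and 23.0 to 42.7 CPM (log2FC 0.12, SE 0.231, edgeR padj 0.751). Whether the counting used strand was not given in the sources used here.

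**Figure D2:**
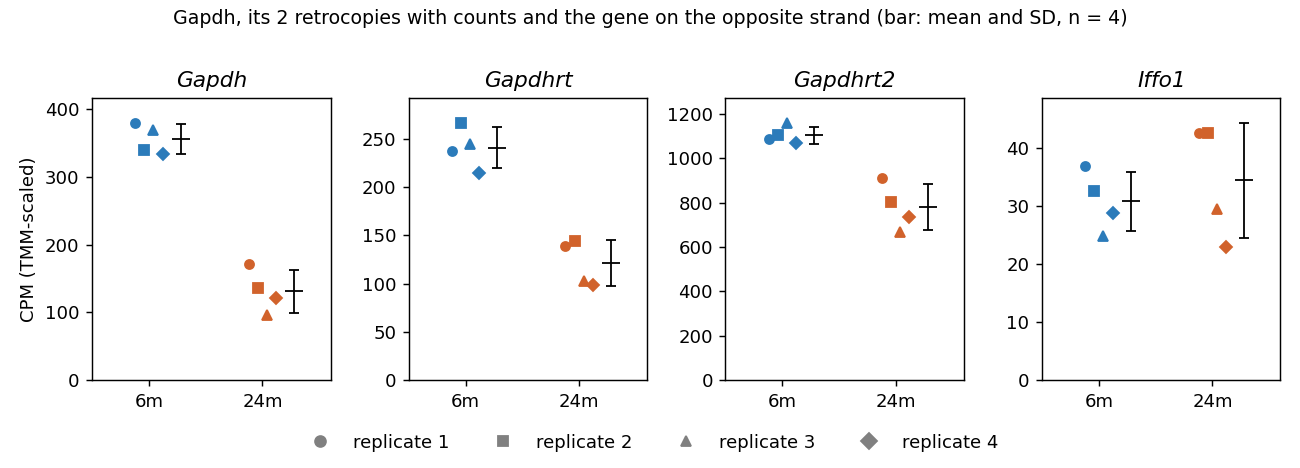
Level in each library, in TMM-scaled CPM, of Gapdh, of its retrotransposed copies Gapdhrt and Gapdhrt2 and of Iffo1, whose exons overlap Gapdh on the opposite strand (vertical axes start at 0 and differ between panels; symbols for replicates, mean and SD of 4 libraries in black). The ages do not overlap for Gapdh, Gapdhrt and Gapdhrt2, whose means were 356, 241 and 1104 CPM at 6m and 131, 121 and 780 CPM at 24m, and they overlap for Iffo1.

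The profile of Gapdh over the 8 libraries was compared with that of every other tested gene by the root mean square difference of the mean-centred log2 CPM. The 5 closest genes were Gm8797 (0.0678), Cep89 (0.0792), Tnnc1 (0.177), Mphosph8 (0.199) and Kcnma1 (0.243), in units of log2 CPM. All 5 were called lower at 24m, with log2FC from -1.33 for Kcnma1 to -1.80 for Cep89. This direction follows from their choice by likeness to Gapdh, which was itself lower, and is no separate result. The levels of the 5 genes ranged widely: Gm8797 had a mean of 1422 CPM at 6m and Cep89 14.4 CPM, from few counts. The short distance of Cep89 from Gapdh, despite its larger fall, rests in part on the prior count. None of the glycolytic genes or copies was among these 5 genes.

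Pgk1 (ENSMUSG00000062070, chrX:105230706-105247305, plus strand, 11 exons) encodes phosphoglycerate kinase, the first enzyme of the pathway that yields ATP. Its level was 729 to 802 CPM at 6m and 586 to 722 CPM at 24m. The groups did not overlap, although the highest aged library, replicate 1, came close to the lowest young adult one. The log2FC was -0.22 (SE 0.0883, 95% interval -0.40 to -0.04, edgeR padj 0.0783), and without aged replicate 1 it was -0.26 (edgeR padj 0.00651). Of 2 near-identical copies, Pgk1-rs7 and Gm5537, neither was a row of the table.

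Enolase, which forms phosphoenolpyruvate, is encoded by Eno1 and Eno2, and these went in opposite directions. Eno1 (ENSMUSG00000063524, chr4:150321073-150337027, plus strand, 12 exons) had 1929, 2063, 2011 and 2087 CPM in young adult replicates 1 to 4 and 1942, 1614, 1589 and 1592 CPM in aged replicates 1 to 4. The groups overlapped by aged replicate 1, which lay above young adult replicate 1, whereas the other 3 aged libraries were lower than all young adult ones. The log2FC was -0.27 (SE 0.0876, 95% interval -0.45 to -0.09, edgeR padj 0.0313), under the fold minimum. This result was not firm: leaving out any 1 library other than aged replicate 1 took padj over 0.05, with log2FC between -0.33 and -0.22 over the 8 omissions.

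The Eno1 counts carry the same kind of limit as those of Gapdh. The retrotransposed gene Eno1b differs from Eno1 at 8 of 1302 coding bases, and its row exceeded that of Eno1 by only 0.421 to 2.13% in each library. Its log2FC was -0.25 (SE 0.0882, edgeR padj 0.0409). The 2 rows thus gave nearly the same number in every library and cannot be told apart. With Eno1b added, the log2FC of Eno1 was -0.26, and the other near-identical copies of Eno1 (Gm4735, Gm5855 and Gm75782) were not rows of the table.

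Eno2 (ENSMUSG00000004267, chr6:124736247-124746636, minus strand, 12 exons) had 691, 559, 651 and 699 CPM in young adult replicates 1 to 4 and 1040, 864, 834 and 679 CPM in aged replicates 1 to 4. Of the aged libraries, 3 stood above all young adult ones, and aged replicate 4 lay within the young adult range. The mean was 650 ± 64.3 CPM (SD, n = 4) at 6m and 854 ± 148 CPM (SD, n = 4) at 24m, a log2FC of 0.38 (SE 0.107, 95% interval 0.16 to 0.60, edgeR padj 0.0121). It passed the adjusted p, as did all 8 markers of the neuronal list, of which Eno2 is itself 1. Of these 8, 7 were higher at 24m and Tubb3 was lower. By the adjusted p alone, 21.7% of all tested genes passed, and 40.4% of those with a mean count of at least 100. No near-identical copy of Eno2 was found.

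The ratio of Eno1 to Eno2 within a library does not depend on the scaling between libraries. It was 2.79, 3.69, 3.09 and 2.98 in young adult replicates 1 to 4 and 1.87, 1.87, 1.90 and 2.34 in aged replicates 1 to 4. Every aged library lay below every young adult library. The mean ratio was 3.14 ± 0.388 (SD, n = 4) at 6m and 2.00 ± 0.233 (SD, n = 4) at 24m, and the log2 difference was -0.65 (SE 0.117, two-sided exact permutation test p = 0.0286, the smallest the design allows, and 0.0858 after Benjamini-Hochberg adjustment over 3 isoenzyme ratios). Since no smaller p was possible, the adjusted value could pass 0.05 only together with other ratios.

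Pkm (ENSMUSG00000032294, chr9:59563364-59586663, plus strand, 11 exons) encodes the pyruvate kinase of most tissues, which makes pyruvate and ATP. The young adult libraries lay close together, at 1942, 1797, 1867 and 1901 CPM, and the aged ones far apart, at 2178, 1675, 1662 and 1373 CPM for replicates 1 to 4. Aged replicate 1 was above and the other 3 aged libraries below all young adult ones. The log2FC was -0.13 (SE 0.104, 95% interval -0.34 to 0.09, edgeR padj 0.412). The value moved with single aged libraries: it was -0.25 without aged replicate 1 (edgeR padj 0.00794) and -0.016 without aged replicate 4 (edgeR padj 0.93), while under quantile normalization the sign was positive. The gene-level count joins the M1 and M2 splice forms of Pkm, which were not separated here.

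Ldha (ENSMUSG00000063229, chr7:46490899-46505061, plus strand, 8 exons) and Ldhb (ENSMUSG00000030246, chr6:142435672-142454586, minus strand, 8 exons) encode the lactate dehydrogenase subunits. Ldha was at 508 to 541 CPM at 6m and 433 to 498 CPM at 24m, with a log2FC of -0.17 (SE 0.0866, edgeR padj 0.172). Ldhb was at 1384 to 1455 CPM at 6m and 1194 to 1343 CPM at 24m, with a log2FC of -0.17 (SE 0.0825, edgeR padj 0.143). In both genes all aged libraries lay below all young adult ones, yet neither passed the test. Without aged replicate 1 the log2FC of Ldhb was -0.19 (edgeR padj 0.0181), and the sign of Ldhb turned under quantile normalization. The near-identical copies of both genes (Gm5452 and Gm9247 for Ldha, Ldhb-ps for Ldhb) were not rows of the table.

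The ratio of Ldha to Ldhb was 0.372 ± 0.0120 (SD, n = 4) at 6m and 0.372 ± 0.0127 (SD, n = 4) at 24m. The libraries ranged from 0.358 to 0.383 at 6m and from 0.361 to 0.390 at 24m and overlapped throughout. The log2 difference was 0.002 (SE 0.0338, two-sided exact permutation test p = 0.971, adjusted over 3 ratios 0.971), so no shift between the subunits was detectable. For Aldoa to Aldoc the ratio was 1.80 ± 0.216 (SD, n = 4) at 6m and 1.86 ± 0.160 (SD, n = 4) at 24m (log2 difference 0.05, SE 0.105, two-sided exact permutation test p = 0.686, adjusted 0.971).

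**Figure D3:**
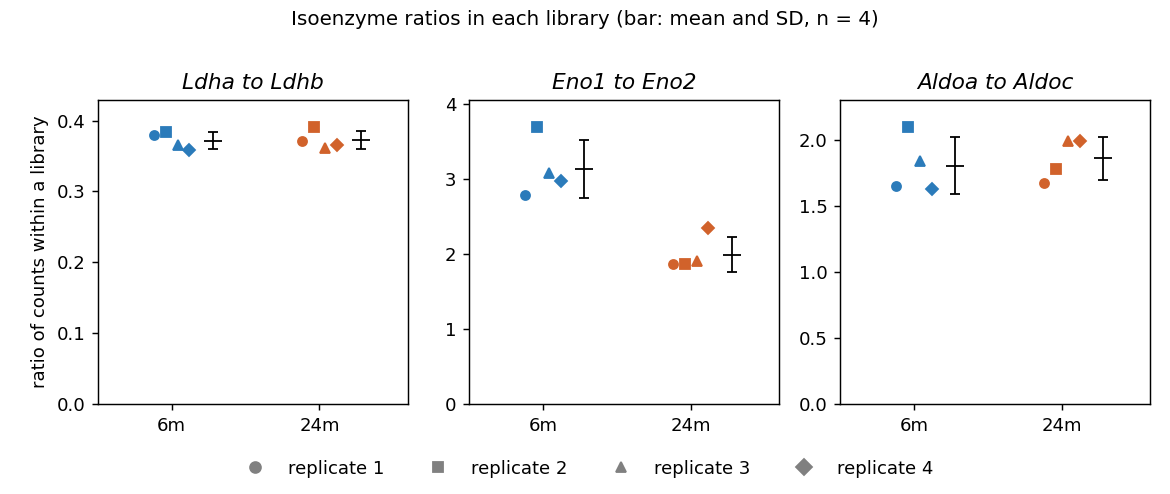
Ratio of the counts of isoenzyme genes within each library (vertical axes start at 0 and differ between panels; 6m in blue, 24m in orange, symbols for replicates, mean and SD of 4 libraries in black). The ratio of Eno1 to Eno2 was lower in all 4 aged libraries (1.87 to 2.34) than in the young adult ones (2.79 to 3.69), whereas the ages overlap for Ldha to Ldhb and for Aldoa to Aldoc.

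The rest of the pathway was examined through 3 lists: other isoenzymes and steps of glycolysis, transport of glucose, lactate and pyruvate, and regulators. Of 21 other glycolysis genes, 12 had enough counts to be tested and none was called by edgeR's test with the fold minimum. At an adjusted p alone 3 passed, against 21.7% of all tested genes. Pfkp, which encodes the platelet-type phosphofructokinase found in brain, came closest to the fold minimum: its levels were 277 to 350 CPM at 6m and 195 to 221 CPM at 24m, without overlap (log2FC -0.57, SE 0.105, edgeR padj 0.000424). Its relatives Pfkl and Pfkm did not pass, with log2FC of -0.18 (edgeR padj 0.26) and -0.11 (edgeR padj 0.397). Pgam1, which encodes phosphoglycerate mutase, had 644 to 781 CPM at 6m and 779 to 1011 CPM at 24m (log2FC 0.29, SE 0.0951, edgeR padj 0.0299), and the third gene was Eno1b. None of the others passed: log2FC was 0.18 for Hk1, the main brain hexokinase, -0.13 for Aldoc, -0.28 for Gapdhs, -0.27 for Pgam2, 0.09 for Bpgm, -0.82 for Eno3 and 0.77 for Ldhd, with edgeR padj from 0.134 to 0.753. Eno3 and Ldhd had 3 to 19 counts per library, so their folds were poorly determined.

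The only call in the 3 lists was 1 transport gene. Slc2a3, which encodes the neuronal glucose transporter GLUT3, rose at 24m. Its level was 14.8, 18.1, 11.2 and 13.8 CPM in young adult replicates 1 to 4 and 36.6, 57.2, 47.3 and 29.9 CPM in aged replicates 1 to 4, from 9 to 12 and 24 to 55 counts. The groups did not overlap, and the log2FC was 1.57 (SE 0.262, 95% interval 1.03 to 2.10, edgeR padj 0.000144). Slc2a1, which encodes the glucose transporter of brain endothelium and astrocytes, was at 54.8 to 67.8 CPM at 6m and 53.7 to 61.3 CPM at 24m (log2FC -0.02, SE 0.154, edgeR padj 0.95). Bsg, which encodes a chaperone of the lactate transporters, was lower at an adjusted p alone, from 998 ± 27.1 CPM (SD, n = 4) at 6m to 742 ± 64.2 CPM (SD, n = 4) at 24m, without overlap (log2FC -0.43, edgeR padj 0.000945). In all, 8 of 12 transport genes were tested and 1 was called higher, against 14.5% of all tested genes called (10.3% higher). A single call among so few genes is near that share and is no result about transport as a whole. Of 11 regulators, 5 were tested (Tigar, Hif1a, Vhl, Egln1 and Adpgk) and none was called. All 5 had a positive log2FC at few counts, from 0.05 for Hif1a to 1.01 for Vhl, with edgeR padj from 0.0644 to 0.942. With 1 library left out, 1 to 3 genes of the 3 lists were called: 2 without young adult replicate 1, young adult replicate 4 or aged replicate 3, and 3 without aged replicate 4.

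**Figure D4:**
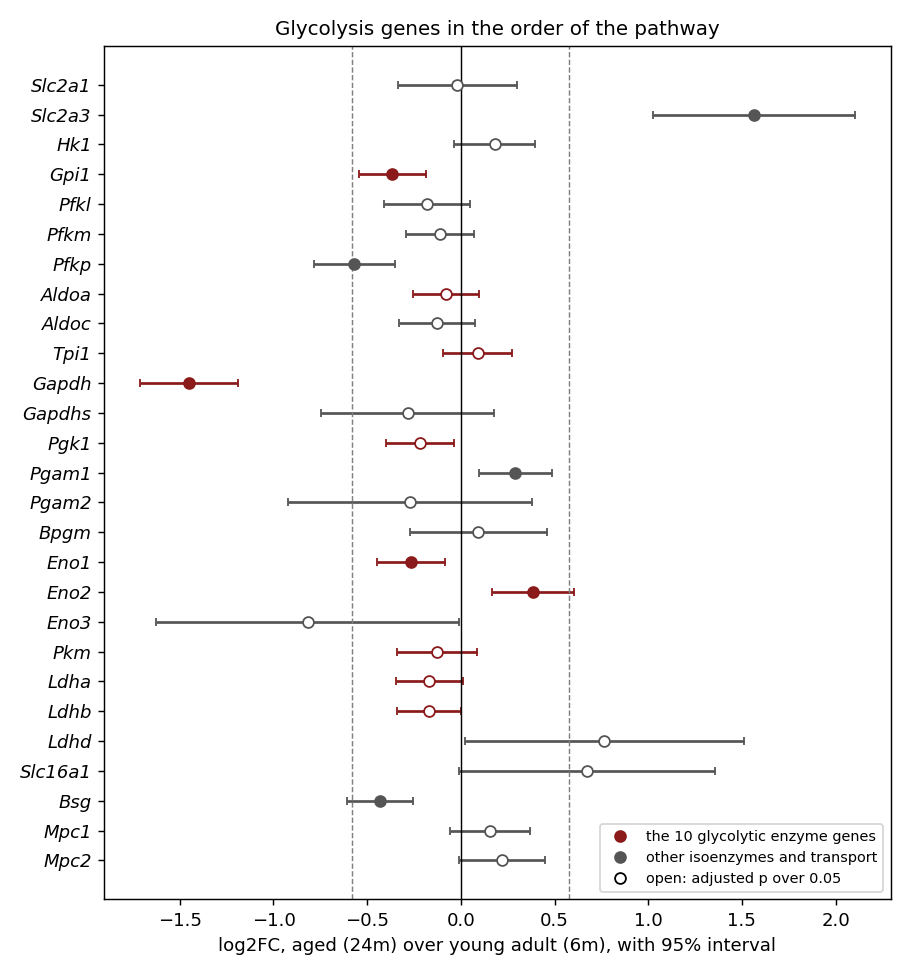
log2FC of 24m over 6m with its 95% interval for the 10 genes (red) and the other tested isoenzymes and transport genes shown (grey), in the order of the pathway from glucose uptake to lactate and pyruvate transport. Filled symbols have an adjusted p of at most 0.05 and dashed lines mark the fold minimum of 0.58 in each direction; beyond them with a filled symbol lie only Gapdh (-1.45) and Slc2a3 (1.57).

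Across the 22 other settings tried for each gene, including other normalizations, filters, tests and omission of each library, Gapdh was lower in all 22 with padj at most 0.05, with log2FC from -1.57 to -0.72. Eno2 was higher in all 22 with padj at most 0.05, from 0.29 to 0.53. Gpi1 was lower in all 22, from -0.42 to -0.19, and passed the adjusted p in 21. The 3 genes whose sign turned in some setting were Aldoa, Pkm and Ldhb.

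**Figure D5:**
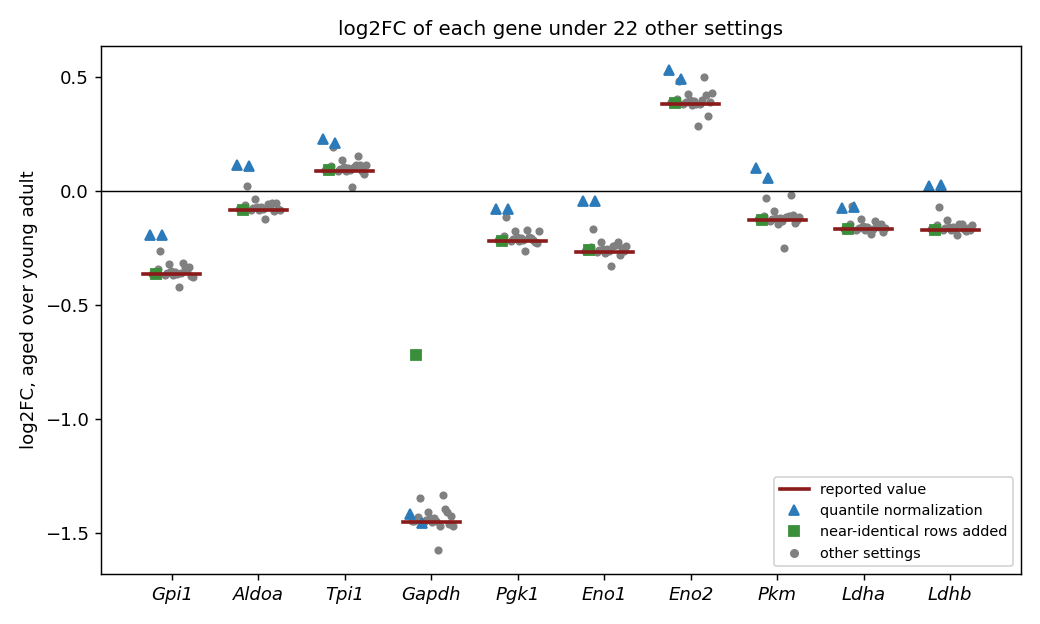
log2FC of 24m over 6m of each of the 10 genes as reported (red bar) and under 22 other settings (points), with quantile normalization as triangles and the sum with near-identical rows as squares. Gapdh moves from -1.45 to -0.72 when its copies are added, and quantile normalization lifts most of the other genes, Aldoa, Pkm and Ldhb past 0.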

How the data were processed

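RNA of 8 brain hemispheres (4 mice at 6 months, 4 at 24 months, 1 library each) was sequenced on a MinION. According to the authors, reads were mapped to GRCm39 with its Ensembl annotation with minimap2 (version 2.24 per the submitters' processing notes) and assigned to genes with featureCounts, and the table as deposited by them holds unnormalized counts. Settings for strand, overlapping genes and reads with several alignments are not given in the sources used here. The authors' later filter and quantile normalization are not part of the deposited counts.

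Genes were matched to GENCODE vM39 (22281 of 22430). Genes with a mean count over 5 (9375, holding 98.6% of the counts) were tested with edgeR 4.0.16 (R 4.3.3; TMM factors, quasi-likelihood test, age only), and p was adjusted over all of them by Benjamini-Hochberg. padj of at most 0.05 with |log2FC| of at least 0.58 counted as a call. CPM were computed from effective library sizes with no prior count. Only the log2 CPM behind the profile comparison and the correlations of replicate deviations had a prior count of 2. Isoenzyme ratios were compared by exact permutation over all 70 splits. Near-identical copies were sought with BLAST+ 2.17.0. The methods describe 4 animals per age in this cohort, taken here as 1 mouse per library, and the labels name no batch. Replicate pairs of an age differed by more than sampling noise. The labels number the replicates without stating a pairing, and the samples were taken as unpaired. Alternatives used DESeq2 1.42.0, limma 3.58.1 (voom), other scalings, filters and omissions. The tests across genes were checked on simulated data.

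The 10 genes and the lists were chosen by function, with earlier results of these data known. Named are the 10 genes, every called gene of the other pathway lists, every tested gene of the other glycolysis list, table rows nearly identical to one of the 10 genes, table genes sharing exon bases with one, and the 5 genes closest to Gapdh in profile. A few further members of the pathway and marker lists (Slc2a1, Bsg, the regulators, Tubb3, Alb and Ttr) and the copies outside the table were named after their values were seen. Protein and promoter sequences were not used here.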

Additional observations from a re-analysis of the deposited data

Results flagged for a closer look

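In 40 groups of 4 libraries, a library that stood apart from the others of its age was sought. The groups were the levels of the 10 genes, of their tested copies and of the tested genes sharing exon bases with them. The isoenzyme ratios and the share of counts on the 10 genes were also included, each at each age. Dixon's test on the gap divided by the range was used at the 95% level. Chance alone gives about 1 in 20 such groups. The critical value was exceeded in 4. Aldoa was at 4370 CPM in aged replicate 1 and at 3780 to 3836 CPM in the other aged libraries (gap over range 0.905). Eno1 was at 1942 CPM in aged replicate 1 and at 1589 to 1614 CPM in the others (0.931), and its near-identical row Eno1b, whose counts cannot be told apart from those of Eno1, at 1983 CPM and at 1605 to 1648 CPM (0.886). The ratio of Eno1 to Eno2 was 2.34 in aged replicate 4 and 1.87 to 1.90 in the others (0.922). Aged replicate 1 also had the highest level of every other of the 10 genes among the aged libraries and the lowest share of mitochondrially encoded mRNA of all libraries, 6.48%; the part of the latter in the former was not tested.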

How the results depend on the processing

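By adjusted p alone, 4 of the 10 genes passed (1 higher, 3 lower); in every other setting run, Gapdh was the 1 call. Of the other pathway lists (1 call as reported), 3 genes were called with library sizes alone, 2 with more than 5 counts in every library, 5 by adjusted p alone, and 1 to 3 with a library left out. These were 2 without young adult replicate 1, young adult replicate 4 or aged replicate 3, and 3 without aged replicate 4. Of all tested genes, 14.5% were called as reported, 15.4% with library sizes alone and 14.3% with more than 5 counts in every library. The share was 21.7% by adjusted p alone and 10.6 to 16.8% with a library left out. DESeq2 on raw counts called 834 genes in all, against 1359. Quantile normalization (DESeq2, then limma-voom) gave log2FC of 0.12 and 0.11 for Aldoa, 0.10 and 0.057 for Pkm, 0.023 and 0.027 for Ldhb and -0.042 and -0.044 for Eno1, which no longer passed; Gpi1 missed the adjusted p with DESeq2 (-0.19, padj 0.117) and Tpi1 passed it with voom (0.21, padj 0.0344). Library sizes alone, which moved the median of all genes to 0.10, gave 0.021 for Aldoa and -0.16 for Eno1, which no longer passed. Over the omissions of 1 library, log2FC was -0.25 to -0.016 for Pkm, -0.33 to -0.22 for Eno1, -0.19 to -0.14 for Ldhb and -0.26 to -0.17 for Pgk1. Without aged replicate 1, Pkm, Ldhb and Pgk1 passed the adjusted p; without any other single library Eno1 did not. The log2 difference of Ldha to Ldhb lay between -0.021 and 0.017. In all, 282 recomputed values kept their direction and side of the threshold, or for counts and shares stayed near the reported value. The cause of these shifts was not tested.

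The labels number the replicates without stating a pairing. Deviations of same-numbered libraries correlated at 0.0647, -0.0101, 0.0051 and -0.160, and those of differently numbered ones at -0.0953 to 0.113. No pairing was seen, but such correlations, with many genes at few counts, cannot exclude one. With a replicate block, Gapdh had a log2FC of -1.45 and was the 1 call of the 10 genes, 1 other pathway gene was called, and 1308 genes (14%) were called in all. None of the 10 genes changed its side of the adjusted p threshold with the block. For the isoenzyme ratios, the block replaced the permutation over all splits by one within the 4 same-numbered pairs, which cannot give a p under 0.05. The adjusted p of the Eno1 to Eno2 ratio went from 0.0858 to 0.375, with an unchanged log2 difference of -0.65. Every aged ratio lay below every young adult one, so its p took the smallest value the pairs allow. The rise is thus no sign of a weaker difference. The other 2 isoenzyme ratios stayed over 0.05, which this test could not have changed. Depth limits the genes with few counts, such as Slc2a3, Eno3, Ldhd and the regulators, and multi-mapped reads limit Gapdh and Eno1.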
